A study of Homo sapiens with 4 samples.

Results

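Activated T cells take up amino acids, glucose, lactate and iron through a small set of plasma membrane transporters, and 10 genes of this kind were followed in the PRMT5 crosslinked RIP-seq of Jurkat cells: SLC7A5, SLC3A2, SLC1A5, SLC7A1, SLC7A6, SLC38A1 and SLC38A2 for amino acids, SLC2A1 for glucose, SLC16A1 for lactate and TFRC for transferrin-bound iron. Peaks were taken from the deposited list when their gene identifier mapped to one of these genes. The list held 18993 peaks under 8478 first-listed gene identifiers, and 27 of these peaks belonged to 8 of the 10 genes. The share of all annotated genes with a peak was not computed. Whether this count, or those of the lists below, is high or low is therefore not known. SLC7A6 and SLC38A1 had no peak on either strand. The study concerned the control of PDCD1 RNA by PRMT5, an arginine methyltransferase that works with WDR77, and this assay listed RNAs recovered with PRMT5 from stimulated T cells.

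All 4 libraries came from Jurkat, an established human leukemic T cell line, kept in RPMI1640 with fetal bovine serum and treated for 48 hours with PHA, a lectin that stimulates T cells. The labels give UV crosslinking at 264 nm and 400 mJ before lysis, which applied to both groups; the study's general RIP methods give a slightly shorter wavelength. The PRMT5 RIP group (2 libraries) was recovered with a FLAG antibody, and the input group (2 libraries) was RNA of the lysate without that step. The construct carrying the tag, unstimulated cells and a control precipitation with IgG or from untagged cells were not analysed here, so that RNA held back by beads or antibody and RNA bound by PRMT5 cannot be told apart. For each peak the list gives 1 value for PRMT5 RIP and 1 for input in RPM, read counts relative to the size of the library. With no value per library there is no replicate spread, and every difference given here is a description without a test. Genes of T cells were checked as a control of the label: 10 of 12 T cell markers had a peak and 1 of 10 markers of other cells did, which was CD79A with 69.91 RPM in PRMT5 RIP and 37.28 in input. The T cell markers CD4 and PTPRC had no peak. In PRMT5 RIP, the CD79A sum lay within the range of the T cell markers with a peak, 1.63 to 452.76 RPM.

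SLC7A5 and SLC3A2 are the light and heavy chains of the large neutral amino acid transporter LAT1 at the surface of T cells. SLC1A5 brings in glutamine and other neutral amino acids, SLC7A1 carries arginine and lysine, and SLC38A1 and SLC38A2 are sodium-coupled carriers of glutamine and other small neutral amino acids. SLC7A6 is another light chain that pairs with SLC3A2. SLC2A1 encodes the glucose transporter GLUT1, SLC16A1 the lactate and pyruvate transporter MCT1, and TFRC the transferrin receptor, whose mRNA is known for iron-responsive elements near its 3′ end. Several of these genes are known to rise when T cells are stimulated, but stimulated and unstimulated cells were not compared in these libraries.

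Each of the 8 genes had a peak within 300 nt of an annotated RefSeq start, the distance called near a start below. A start was one of the RefSeq promoter table or the 5′ end of the annotated gene, and for SLC16A1 only the latter was used. Among the 7236 named genes with an annotated start, 77.8% had such a peak. The sequences below show where PRMT5 RIP peaks began, or lay in full, in 5 of the transporter RNAs. They are RefSeq sequence of GRCh38.p14 in transcript orientation, with the bases inside a peak in capitals. SLC7A5 is shown from base 1 to 30 (chr16:87869478-87869507, minus strand), SLC3A2 from base 21 to 50 of the start nearest to its highest peak (chr11:62880916-62880945, plus strand), SLC7A1 from base 21 to 50 (chr13:29595639-29595668, minus strand), SLC2A1 from base 1 to 30 (chr1:42958839-42958868, minus strand), and TFRC from base 10 to 39 (chr3:196082052-196082081, minus strand).
SLC7A5: acgcagCTGCGGGCGGCGGGCGGCGCGCAC
SLC3A2: cgcggaggcacagaggccggGGAGAGCGTT
SLC7A1: cgccggaacccgccagccctcggCGCCCAT
SLC2A1: AAGAGGCAAGAGGTAGCAACAGCGAGCGTG
TFRC: ggataTCGGGTGGCGGCTCGGGACGGAGGA
The SLC2A1 peak began at base 1 and the SLC7A5 peak at base 7, whereas the SLC7A1 and SLC3A2 peaks began at bases 44 and 41. The SLC7A5, SLC3A2, SLC7A1 and TFRC peaks had widths of 525, 475, 125 and 25 nt, all multiples of 25 nt. Whether the edges of peaks are exact to the base was not tested. The TFRC peak was 25 nt long and ended within the stretch shown. The first 50 bases had a GC content of 84% in SLC7A5, 70% in SLC7A1, 68% in TFRC and 64% in SLC2A1 and in this SLC3A2 start. The median over all 35116 start windows was 60%, and it was 68% over the 6718 windows of genes with a peak near a start. It was nearly as high, 66%, over the 1781 windows of genes whose peaks lay elsewhere. Over the 26617 windows of genes without a named peak it was 58%. The other starts of SLC3A2 had 48% and 58%, those of SLC1A5 54% to 66%, and SLC38A2 64%. The 2 genes without a peak had 84% in SLC7A6 and 48% and 66% at the 2 annotated starts of SLC38A1, within the range of the genes with a peak.

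The chains of LAT1 had the peaks with the most reads of the set, both of them at a start. SLC7A5 (ENSG00000103257; chr16:87830023-87869507, minus strand) had 5 peaks, 1 at its start and 4 toward its 3′ end. The start peak (chr16:87868977-87869501, 525 nt), whose first bases are printed above, had 18.86 RPM in PRMT5 RIP and 6.37 in input, a ratio of 2.96. The next peak (chr16:87832248-87832347) had 0.82 RPM against 0.23, a ratio of 3.57. The other peaks had 0.29 against 0.19 RPM (chr16:87831573-87831597), 0.88 against 0.68 (chr16:87831023-87831072) and 2.76 against 1.47 (chr16:87830773-87830972), and none of these reached 2-fold. The peak at the start held 79.9% of the gene's PRMT5 RIP RPM and 71.3% of its input RPM. SLC7A5P2, a near-identical pseudogene copy, had a peak of its own (chr16:21520140-21520364) with 4.31 RPM in PRMT5 RIP and 0.75 in input, and the share of reads that could go to either locus is uncertain.

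SLC3A2 (ENSG00000168003; chr11:62856109-62888860, plus strand) had 7 peaks and the highest summed value, 38.37 RPM in PRMT5 RIP and 25.4 in input. Its highest peak (chr11:62880936-62881410, 475 nt) lay 40 nt from an internal annotated start, with 24.49 RPM against 13.76, a ratio of 1.78. Near the upstream start were a pair of 25-nt peaks, chr11:62856304-62856328 with 0.3 RPM against 0.19 and chr11:62856354-62856378 with 0.31 against 0.19. Downstream, the ratio fell short of 2 at every peak. It was 1.22 at chr11:62882009-62882058 (1 RPM against 0.82), 1.5 at chr11:62882950-62884687 (4.1 against 2.73) and 1.18 at chr11:62885581-62888206 (2.39 against 2.03). The last peak (chr11:62888369-62888543), 317 nt from the annotated gene end, had 5.78 RPM in PRMT5 RIP and 5.68 in input, a ratio of 1.02 and the lowest of the set. Of the 7 SLC3A2 peaks none reached 2-fold, whereas 2 of the 5 SLC7A5 peaks did.

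SLC1A5 (ENSG00000105281; chr19:46774883-46788594, minus strand) had 6 peaks, 4 of them in the first 1000 nt of the gene. The peak nearest to its start (chr19:46788213-46788537, 325 nt) had 7.57 RPM in PRMT5 RIP and 5.1 in input, a ratio of 1.48. Behind it lay chr19:46788163-46788187 with 0.44 RPM against 0.35, chr19:46788063-46788087 with 0.54 against 0.47, and chr19:46787838-46787962 with 1.44 against 0.62. A wide peak in the body of the gene (chr19:46778830-46782428) had 1.48 RPM against 0.92. The most 3′ peak (chr19:46777010-46777109), 2127 nt from the gene end, had 0.84 RPM against 0.22, and its ratio of 3.82 was the highest of all 27 peaks. The start of SLC1A5 had a mirror image on the plus strand. For 3 of its 4 most 5′ peaks the list held a plus-strand peak of the same width, shifted by 2 nt, under ENSG00000275719, with 7.41 against 5.06 RPM, 0.44 against 0.36 and 1.45 against 0.62. Together with SLC38A2, described next, 4 of the 27 transporter peaks had an overlapping one on the other strand (18.1% of all peaks). The SLC1A5 values on both strands were nearly equal, so that the strand from which these reads came is uncertain.

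The remaining amino acid carriers had fewer reads. SLC7A1 (ENSG00000139514; chr13:29509414-29595688, minus strand) had a peak 43 nt from its start (chr13:29595521-29595645) with 1.12 RPM against 0.56, a ratio of 2, and a 25-nt peak far inside the gene (chr13:29536108-29536132) with 0.2 RPM against 0.09. SLC38A2 (ENSG00000134294; chr12:46358188-46372773, minus strand) had 1 peak of 1354 nt (chr12:46371207-46372560), 213 nt from its start, with 3.91 RPM against 1.52, a ratio of 2.57. A peak of the antisense gene SLC38A2-AS1 (chr12:46371613-46373326) overlapped it on the plus strand with 0.67 RPM against 0.5, lower than the sense peak in both groups. SLC7A6 and SLC38A1 had no peak, although SLC7A6OS, the gene on the opposite strand next to SLC7A6, had 2 peaks outside the SLC7A6 span, of 5.55 RPM against 0.91 (chr16:68310510-68310930) and 0.36 against 0.14 (chr16:68310385-68310434). The list holds peaks and not coverage, so a gene without a peak has no level here.

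The glucose and lactate transporters were marked by wide peaks. SLC2A1 (ENSG00000117394; chr1:42925353-42958868, minus strand) had a peak of 6952 nt that began at its annotated start (chr1:42951917-42958868), with 4.7 RPM against 1.7 and a ratio of 2.76; the list gives 2 identifiers for it. A further peak of 8369 nt followed (chr1:42943248-42951616) with 1.58 RPM against 0.81, a ratio of 1.95, and a 25-nt peak (chr1:42931179-42931203) had 0.28 against 0.18. The ratio of these 3 peaks thus fell from the 5′ to the 3′ side, from 2.76 through 1.95 to 1.56. SLC16A1 (ENSG00000155380; chr1:112911847-112956196, minus strand) had a single peak of 26907 nt (chr1:112929287-112956193) that started 3 nt from the annotated 5′ end and covered 60.7% of the gene, with 6.11 RPM against 2.66, a ratio of 2.30. All 27 peaks were given as 1 uninterrupted block, and exons were not used here, so how much of these wide peaks is intron was not analysed.

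TFRC (ENSG00000072274; chr3:196049284-196082090, minus strand) had the lowest ratio of the 8 genes. Its peak 14 nt from the start (chr3:196082052-196082076), printed whole above, had 0.46 RPM in PRMT5 RIP and 0.34 in input. A further 25-nt peak (chr3:196073998-196074022) had 0.36 RPM against 0.27. Both ratios, 1.35 and 1.33, were below 2. The TFRC peak closest to the 3′ end of the gene still lay 24714 nt from it, so no peak covered the region in which the iron-responsive elements are known to lie.

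**Figure D1:**
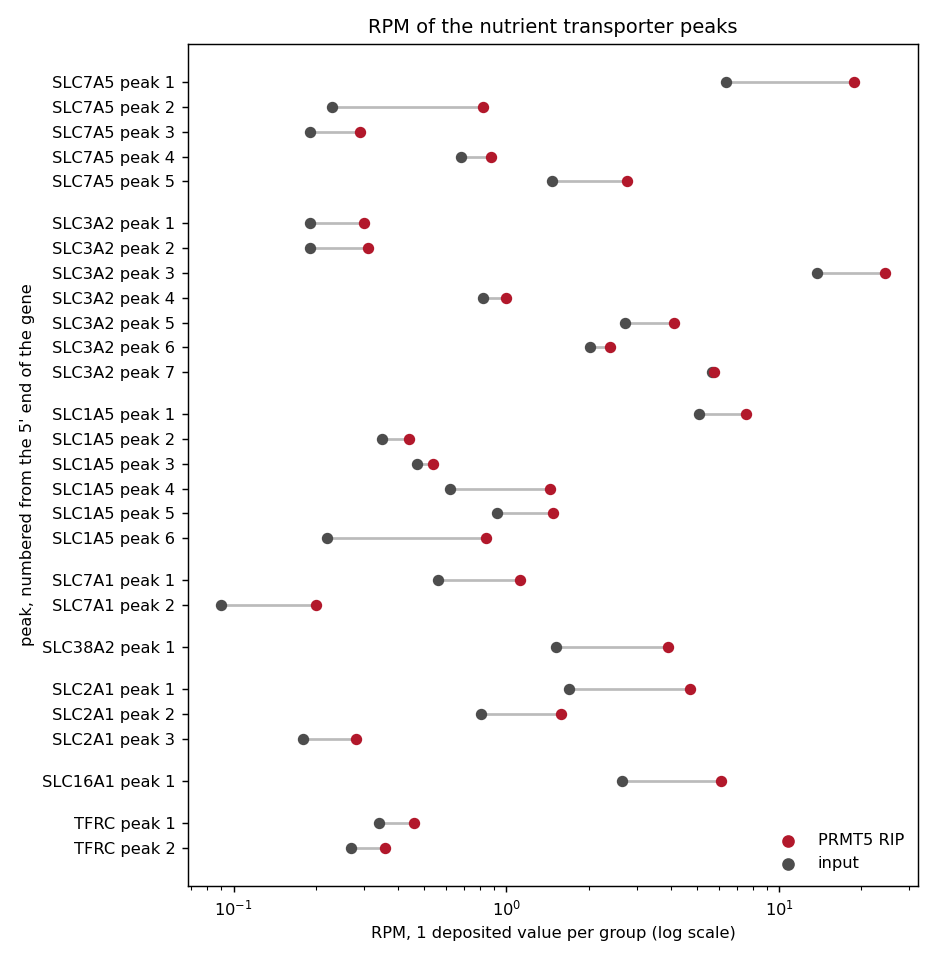
RPM of the 27 transporter peaks on a log axis, with red points for PRMT5 RIP and grey points for input (1 deposited value per group, no error bars possible), and peaks numbered from the 5′ end of each gene. The red point lies to the right of the grey one in all 27 peaks, most closely in SLC3A2 peak 7 (5.78 against 5.68 RPM), and the highest values are SLC3A2 peak 3 (24.49 RPM) and SLC7A5 peak 1 (18.86 RPM).

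Across the set, PRMT5 RIP exceeded input in 27 of 27 peaks, with ratios from 1.02 to 3.82. How the regions were chosen is not given in the sources used here, and only 3.84% of all peaks lay below input, so a ratio above 1 was the rule in the list. A ratio of at least 2 was reached by 9 of the 27 peaks, 33.3%, beside 56.6% of all 18993 peaks. At least 1.5-fold was reached by 18 peaks (all peaks 77.6%) and at least 3-fold by 2 (all peaks 30.1%), namely SLC7A5 peak 2 and SLC1A5 peak 6. Both of these had little input, 0.23 and 0.22 RPM. The median ratio was 1.61 for the transporter peaks and 2.18 for all peaks (log2 ratio 0.68 and 1.10, with 0.01 RPM added to both values). Peaks of the same gene are not independent, and SLC3A2 gave 7 and SLC1A5 6 of the 27. With only the 5′-most peak of each gene, a setting chosen after seeing the data, the transporter median log2 ratio was 1.09. In peaks at least 50 nt wide it was 0.93. The list median was not computed under these 2 settings. Relative to the median of the list, 7 transporter peaks were above and 20 below, and 0 exceeded it by a log2 of 1 or more (12.8% of all peaks). The transporter peaks also had fewer reads, with a median of 1.12 RPM in PRMT5 RIP and 0.68 in input, against 1.95 and 0.83 over the list. An input of at least 0.5 RPM was found in 16 of the 27 (60.2% of all peaks).

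**Figure D2:**
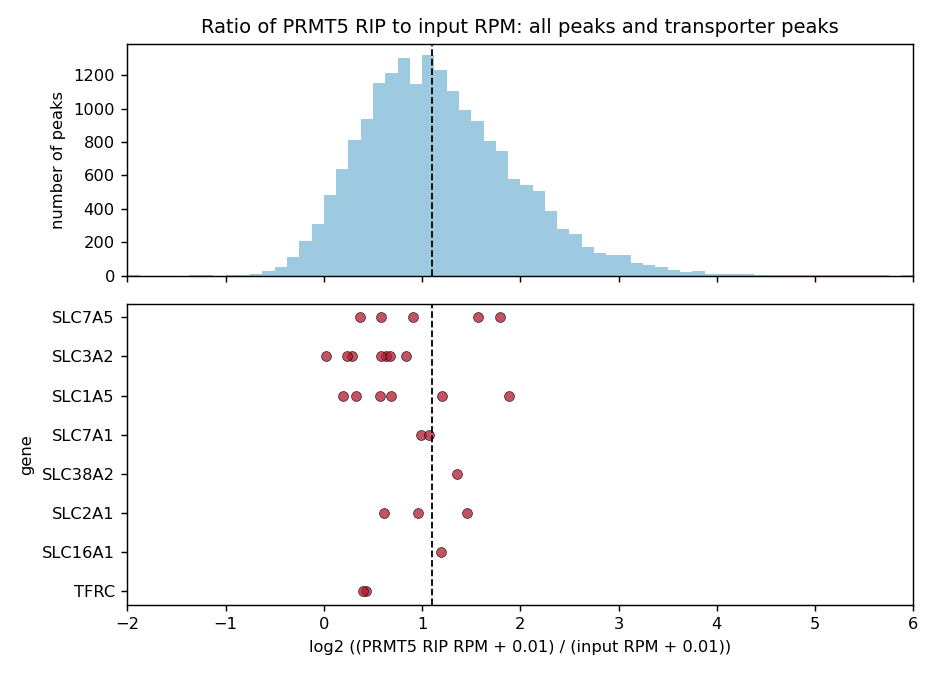
The upper panel counts all 18993 peaks by their log2 ratio of PRMT5 RIP to input RPM (0.01 added to both), and the lower panel gives each transporter peak as a point, by gene; the dashed line is the median of all peaks (1.10). Most points lie left of the line, 20 of 27, and all points of SLC3A2, SLC7A1 and TFRC do.

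Summed over the peaks of a gene, 5 of 8 transporters reached 2-fold, beside 62.7% of the 8478 genes of the list. In descending order the log2 ratios of the sums were 1.40 in SLC7A5 (23.61 against 8.94 RPM), 1.36 in SLC38A2, 1.28 in SLC2A1 (6.56 against 2.69), 1.20 in SLC16A1, 1.01 in SLC7A1 (1.32 against 0.65), 0.68 in SLC1A5 (12.31 against 7.68), 0.59 in SLC3A2 and 0.42 in TFRC (0.82 against 0.61). The median of all genes was 1.20; SLC7A5, SLC38A2 and SLC2A1 lay above it, SLC16A1 just under it and the other 4 below. TFRC was higher than 10.7% of genes and SLC3A2 than 16.7%. Without values per library it cannot be said which neighbours in this order differ beyond their spread. The LAT1 chains, whose proteins work as a pair, lay apart, with 2.64-fold for SLC7A5 and 1.51-fold for SLC3A2.

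Most of the transporters' RPM belonged to peaks that touched or lay near a start. There were 10 peaks near a start among the 27 (38.6% of the peaks of named genes), and they summed to 67.83 RPM in PRMT5 RIP and 32.39 in input, and the other 17 peaks to 25.18 and 17.76. These start peaks thus held 72.9% of the PRMT5 RIP RPM of the set and 64.6% of its input RPM. Over all named genes the shares were 73.4% and 68.1%, so the pooled shares of the set were close to those of the list. Genes with many reads weigh most in such a pooled share. Per gene, the median share of PRMT5 RIP RPM in start peaks was 75.8% in the transporters and 62.4% in named genes. Among genes with 2 or more peaks it was 68.5% and 38.9%. Where reads lie inside a wide peak is unknown: 3 of the start peaks, those of SLC38A2, SLC2A1 and SLC16A1, were wider than 1000 nt and held 14.72 RPM. The 7 start peaks of up to 1000 nt held 53.11 RPM, 57.1% of the set, where such peaks held 43.3% over all named genes. A ratio of at least 2 was found in 5 of the 10 start peaks, those of SLC7A5, SLC7A1, SLC38A2, SLC2A1 and SLC16A1, and in 4 of the 17 others. Over the list it was found in 72.6% of 6449 start peaks and 47.4% of 10278 other peaks of named genes. The median ratio was 1.89 near a start and 1.53 elsewhere in the transporters, and 2.71 and 1.92 over the list.

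With a distance of 100 nt, 7 of the 8 genes had a start peak, all except SLC38A2 (65.5% of named genes), and with 1000 nt the count was again 8 (82.8%). At the other end of the gene, 0 of 8 had a peak within 300 nt of the annotated end (20.2% of named genes), and 2 of 8, SLC7A5 and SLC3A2, had one within 1000 nt (34.3%). Of the 6 transporters with several peaks, the most 5′ peak had a higher ratio than the most 3′ peak in 4, where the list gave 69.5% of 4645 genes. The difference in log2 ratio, 5′ minus 3′, was 0.85 in SLC2A1, 0.66 in SLC7A5, 0.61 in SLC3A2, 0.02 in TFRC, -0.08 in SLC7A1 and -1.32 in SLC1A5. SLC1A5 therefore ran opposite to the majority, through its 3′ peak of 0.84 against 0.22 RPM. For the RPM itself, the most 5′ peak was higher in 5 of 6 genes in PRMT5 RIP (57.2% of genes) and in 5 of 6 in input (51.3%), with SLC3A2 as the exception in both.

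**Figure D3:**
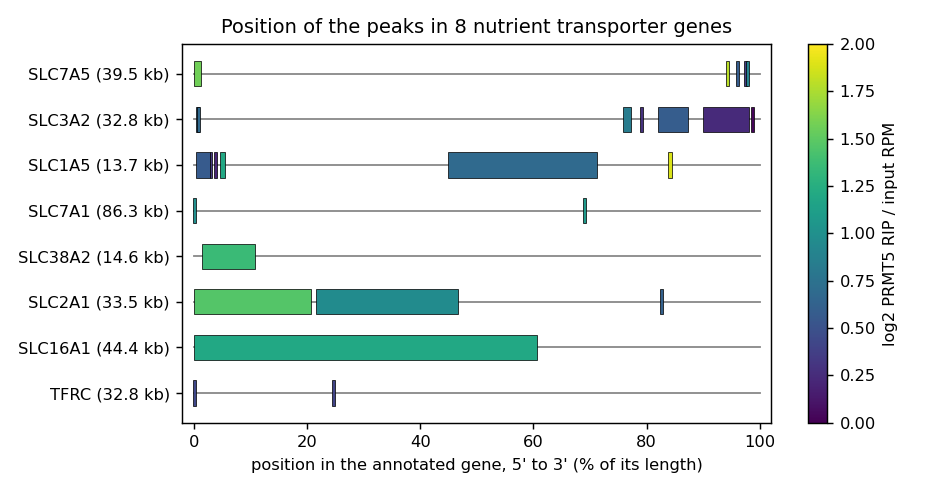
Each line is 1 of the 8 genes, drawn from its annotated 5′ end (0%) to its 3′ end (100%), with the length in kilobases beside the name; boxes are peaks, coloured by log2 ratio of PRMT5 RIP to input RPM (0 dark to 2 yellow), and peaks under 0.5% of the gene length are widened to that size. All 8 genes have a peak at or close to the 5′ end, SLC7A5 and SLC3A2 have more near the 3′ end, and 1 box covers 60.7% of SLC16A1.

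Peak widths varied within genes as well as between them. Widths ran from 25 nt to 26907 nt with a median of 125 nt, against 275 nt over the list, and 20 of the 27 widths were multiples of 25 nt (53.0% of all peaks). At the smallest width of 25 nt were 9 peaks of SLC7A5, SLC3A2, SLC1A5, SLC7A1, SLC2A1 and TFRC (15.0% of all peaks had this width), with 0.2 to 0.54 RPM in PRMT5 RIP and 0.09 to 0.47 in input. Of these 9 only the SLC7A1 peak reached 2-fold, where 51.3% of the 2856 peaks of 25 nt in the list did. Wider than 1000 nt were 7 peaks (32.5% of all peaks): the start peaks of SLC38A2, SLC2A1 and SLC16A1, the second SLC2A1 peak, 2 downstream peaks of SLC3A2 and 1 of SLC1A5. SLC3A2, SLC1A5 and SLC2A1 thus had peaks of 25 nt and peaks over 1000 nt. Levels were compared between genes per length, by the start peak with the most PRMT5 RIP RPM in each gene. This peak had 5.16 RPM of PRMT5 RIP per 100 nt in SLC3A2, 3.59 in SLC7A5, 2.33 in SLC1A5, 1.84 in TFRC and 0.90 in SLC7A1. The pair of 25-nt peaks near the upstream start of SLC3A2 had 1.2 and 1.24. In the wide start peaks of SLC38A2, SLC2A1 and SLC16A1 the same density was 0.29, 0.07 and 0.02 RPM per 100 nt. A density over a wide region divides by all of its bases, so these 3 low densities follow in part from the width and are not compared with those of the narrow peaks. Among the narrow start peaks the order of density was not the order of ratio. The SLC3A2 peak with the highest density had a ratio of 1.78, and the SLC7A5 peak, the next, had 2.96.

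Genes of related function were described in 4 lists, by the sum of each gene's peaks and beside the 62.7% of all genes at 2-fold or more. Of 19 further amino acid carriers 7 had a peak under their symbol, and 6 of these reached 2-fold, with a median ratio of 3.3. These 6 had summed inputs of only 0.08 to 0.71 RPM, whereas SLC38A10, with 2.69 RPM, had a ratio of 1.76. Among all genes with a summed input of at least 1 RPM, 2-fold was less common (49.5%), so the count of 6 is not read as a trait of these carriers. The highest PRMT5 RIP sums were those of SLC38A10, a relative of SLC38A2, with 4.74 RPM against 2.69, and of the taurine transporter SLC6A6, with 2.13 against 0.71. Of 12 genes of glucose and monocarboxylate uptake 5 had a peak and 3 reached 2-fold, with a median of 2.17. Among them BSG, the chaperone that brings the lactate transporters to the membrane, had 188.8 RPM against 110.24, a ratio of 1.71, and the glucose transporter relative SLC2A6 had 1.53 against 0.35, a ratio of 4.37. Most of these carriers had few reads, and both lists had sums under 5 RPM except for BSG.

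Of 16 genes of iron handling 9 had a peak, 5 reached 2-fold and 1 lay below input, with a median ratio of 2.06. The ferritin chains, which store iron taken up through the transferrin receptor, held the most reads among the transporters and the related lists. They lay on opposite sides of input. FTH1, the heavy chain, had 1187.89 RPM in PRMT5 RIP and 465.15 in input, a ratio of 2.55 that rested on the most 5′ of its 3 peaks. That peak had 899.75 RPM against 221.51, a ratio of 4.06, and the others had ratios of 1.23 and 1.16. FTL, the light chain, had 471.61 against 607.03, a ratio of 0.777, and both of its peaks lay at 0.778 and 0.776. Both have processed pseudogenes, and the assignment of their reads is uncertain. TFRC had 0.82 against 0.61 RPM, so the receptor lay between the ferritin chains in ratio and far below both in reads.

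Of 20 genes that sense nutrients, mostly around the kinase mTOR, 12 had a peak and 7 reached 2-fold, with a median ratio of 2.40. ATF4, a transcription factor induced when amino acids are scarce, had 238.91 RPM against 161.5, a ratio of 1.48. LAMTOR2 and LAMTOR4, subunits of the Ragulator complex on the lysosome, had 121.34 against 32.87 RPM, a ratio of 3.69, and 112.53 against 22.22, a ratio of 5.06. MLST8, a subunit of mTOR complexes, had 60.9 against 45.03, a ratio of 1.35. In all 4 lists together 21 of 33 genes reached 2-fold, beside 62.7% of all genes. Among genes with a summed input of at least 1 RPM, 8 of 19 did, beside 49.5% of 5478 genes under the same limit, and so did 4 of the 6 transporters within it, SLC7A5, SLC38A2, SLC2A1 and SLC16A1.

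**Figure D4:**
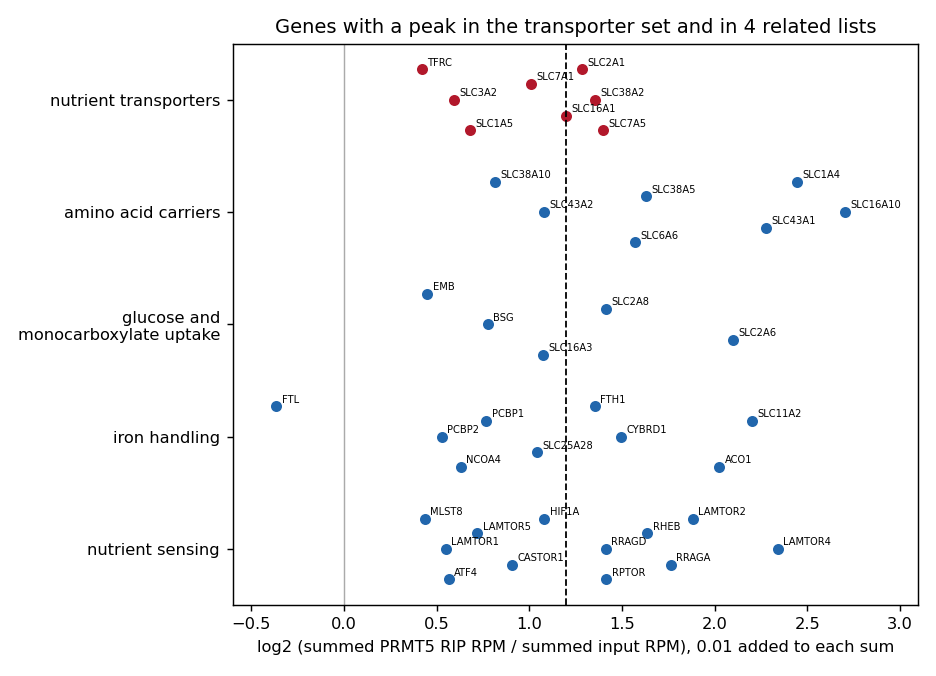
Each point is a gene with a peak, placed by the log2 ratio of its summed PRMT5 RIP RPM to its summed input RPM (0.01 added to each sum), for the 8 transporters in red and the genes of 4 related lists in blue; vertical offsets only separate the names. The dashed line is the median of all 8478 genes (1.20) and the grey line marks equal values: 5 of the 8 transporters lie left of the dashed line, SLC16A1 almost on it, and FTL alone lies left of the grey line.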

How the data were processed

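Jurkat RNA from 2 PRMT5 RIP and 2 input libraries was described from 1 deposited peak list. Its RPM values, reads scaled to library size, were made by the authors, 1 for PRMT5 RIP and 1 for input, rounded to 0.01. The submitters' processing notes name fastp, HISAT2 and hg38. The peak caller, its threshold, the annotation and the way replicates were pooled are not given in the sources used here. Low values took every step of 0.01, so the depth of the libraries is unknown and no interval was computed. The list also holds the authors' own comparison of PRMT5 RIP with input (log2 fold changes, p-values, FDR and scores), which was not used.

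Each peak went to its first-listed identifier. Symbols came from the study's supplementary target table (849 genes, TFRC among them). Otherwise they came from RefSeq genes of GRCh38.p14 by position (6389 genes, 7 transporters among them). The gene taken was the only one that the peaks touched on the same strand, or the only protein-coding one of several. Genes without a listed start, SLC16A1 among them, had no strand given and were matched on either strand. Their 5′ end was set by the strand of the peak. Overlapping and antisense genes are uncertain in this matching. Log2 ratios used a pseudocount of 0.01 RPM. Members and lists were chosen with earlier results of these data known. Named were the 10 transporters and, from each list, the 2 genes with the highest PRMT5 RIP sum and those with the highest and lowest ratio at an input of at least 1 RPM; SLC7A5P2, SLC7A6OS, SLC38A2-AS1, CD79A and the solute carriers and CD5 and CD3D of the last part were picked with their values in view. Alternatives covered the fold, pseudocount, centring, filters on input RPM and width, strand overlap, and the choice of peaks per gene. The counting of peaks by position was tested on simulated data. Python 3.11.15, pandas 2.3.3, numpy 2.4.6 and matplotlib 3.10.9 were used.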

Additional observations from a re-analysis of the deposited data

How the results depend on the processing

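No paired analysis was possible because the list gives 1 pooled value per group, and for the same reason no replicate could be left out. Centring changed the sign of the ratios. Relative to the median of all peaks, the median log2 ratio of the transporter peaks was -0.42, and 0% of them were at least 2-fold above it. Relative to the median of all genes, the median log2 ratio of the summed values was -0.10, with -0.60 in SLC3A2, -0.52 in SLC1A5, -0.19 in SLC7A1, -0.0029 in SLC16A1 and -0.78 in TFRC, while SLC7A5, SLC38A2 and SLC2A1 kept values above 0 (0.20, 0.16 and 0.08). The share of transporter peaks past the threshold was 66.7% at 1.5-fold and 7.41% at 3-fold. With an input of at least 0.5 RPM 16 transporter peaks were left, and with a summed input of at least 1 RPM 8 of 19 genes of the related lists reached 2-fold (49.5% of all genes under that limit). In the other 23 settings tried for these summaries the value kept its direction and moved by no more than a factor of 1.5. The 5′-most peak alone, the overlap with opposite-strand peaks for the share, and the start distances of 100 and 1000 nt were chosen after seeing the data. SLC38A2 had no value without peaks that overlap the opposite strand, and TFRC had none among peaks of at least 50 nt. Depth limits the narrow peaks most, since 11 of the 27 had an input under 0.5 RPM, among them both peaks past 3-fold.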

Other observations

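Outside the 10 transporters and the 4 lists, 86 protein-coding genes named as solute carriers, of 30 families, had a peak. They were picked by symbol, without antisense, pseudogene and SLC-derived names. In some of them the nearest peak lay far from an annotated start, and the assignment of their reads is uncertain. This distance was 134408 nt in SLC9B1 and 19282 nt in SLC2A11, which had 2301.88 RPM in PRMT5 RIP against 1282.4 in input. A summed ratio of at least 2 was reached by 67 of the 86 genes, 77.9%, beside 62.7% of all genes of the list, with a median ratio of 2.55, and 1 lay below input. With a summed input of at least 1 RPM it was 33 of 50, beside 49.5% of all genes under that limit. The 28 genes of the SLC25 family, carriers of the mitochondrial inner membrane, had a median ratio of 2.27, with 18 at 2-fold or more. The other 58 had a median of 2.63, with 49 at 2-fold or more. This split was not repeated with the limit on input, so whether the difference follows the input level was not tested. SLC25A33, a mitochondrial carrier of pyrimidine nucleotides, had 23.99 RPM in PRMT5 RIP against 4.1 in input, a ratio of 5.85. The T cell markers lay lower: 1 of the 10 with a peak, CD5, reached 2-fold (2.36), and their median ratio was 1.27. These markers and the solute carriers were not matched for input. CD5 had the lowest summed input of the 10 markers, 0.69 RPM, and the others had 3.46 to 417.11 RPM. Of the solute carriers, 50 of 86 had at least 1 RPM. CD3D, a chain of the T cell receptor complex, had 452.76 RPM against 417.11.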
